A study of Mus musculus with 2 samples.

Results

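The E2 enzymes carry ubiquitin, or a relative of it, between the enzyme that activates it (E1) and the ligase that selects the substrate (E3). The family was taken here as every protein-coding gene whose GENCODE symbol starts with Ube2 followed by a letter, which gave 37 of the 43346 genes in the tables and 37 of 21461 protein-coding genes outside the mitochondrial genome. The rule used names only, so it also takes in Ube2v1 and Ube2v2, which resemble E2 enzymes but lack the catalytic cysteine, and Ube2cbp, which binds an E2 and is not one itself.

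An E1 activates ubiquitin with ATP and passes it as a thioester to the catalytic cysteine of an E2, which often decides, together with the E3, which kind of chain is built. Chains of one linkage send proteins to the proteasome, while others serve signalling and DNA damage tolerance. SUMO, NEDD8 and ISG15 each use E2 enzymes of their own. In the erythroid lineage the cascade is known for its part in terminal maturation, when the reticulocyte clears organelles and surplus proteins and Ube2o, Ube2h and Ube2l6 are among the E2 genes known to be induced.

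RNA was measured in G1E, an immortalized line labelled as a Gata1- erythroid progenitor, of mouse strain C57BL/6J, male sex and a postnatal stage with an age of 0 day. GATA1 is the transcription factor that drives erythroid maturation, and both libraries share its loss. Sequencing was of total RNA after removal of ribosomal RNA, in 1 group of 2 libraries numbered as biological replicates 1 and 2, with no treatment named. The line stands for 1 immortalized genotype and has no Gata1-restored counterpart here, so genes are compared with each other and the libraries with one another, and replicate error covers these 2 libraries only.

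Expected counts on genes (estimated reads, with reads that fit several genes divided among them) summed to 58094631 in replicate 1 and 55274368 in replicate 2. Levels below are in TPM (a relative transcript abundance that corrects for gene length), with the SD over the libraries (n = 2), and a gene counts as detected at 1 TPM or more in both. Of the marker lists, 8 of 8 immature erythroid genes were detected, with summed levels of 277.7 and 252.85 TPM in replicates 1 and 2, and 4 of 10 late erythroid genes, with sums of 25.28 and 25.45 TPM and Trim58 at 0. Mast cell markers were detected in 4 of 5 cases, with sums of 194.31 and 174.33 TPM. The counts were 2 of 4 for megakaryocyte genes (sums of 18.65 and 19.91 TPM), 1 of 6 for granulocyte and macrophage genes (2.71 and 2.63 TPM) and 0 of 4 for lymphoid genes (0.35 and 0.38 TPM). The part of mast cell transcripts in the E2 levels was not tested.

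The stretch that carries the chemistry is short and was read from the GENCODE M21 coding sequences on GRCm38 (mm10). Most E2 enzymes share the residues histidine, proline and asparagine a little before the catalytic cysteine. Codons for these residues in a row were present in 23 of the 37 coding sequences, and in 20 of them a cysteine codon followed 8 codons after the asparagine. Ube2h and Ube2k had it 9 codons after, and Ube2u had none at either place. The windows below run from the histidine codon to the cysteine codon, which is in capitals, on the coding strand from 5′ to 3′. They are given for the members with the highest levels, for close paralogs whose levels differed, and for Ube2h, whose window is longer than the rest shown.
Ube2d3: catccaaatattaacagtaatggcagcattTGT
Ube2d2b: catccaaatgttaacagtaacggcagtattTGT
Ube2d1: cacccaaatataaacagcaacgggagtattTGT
Ube2b: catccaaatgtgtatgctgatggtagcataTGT
Ube2a: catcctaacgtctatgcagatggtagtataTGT
Ube2l3: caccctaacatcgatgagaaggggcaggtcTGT
Ube2l6: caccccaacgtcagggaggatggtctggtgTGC
Ube2s: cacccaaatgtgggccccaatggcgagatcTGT
Ube2c: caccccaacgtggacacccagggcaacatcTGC
Ube2m: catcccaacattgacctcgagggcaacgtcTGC
Ube2h: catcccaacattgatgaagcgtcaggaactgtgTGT

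These windows span 33 bases, and that of Ube2h spans 36. The Ube2d3 window lies at chr3:135459999-135460031 on the plus strand, in exon 6 of its coding transcript, and ends at codon 85. The Ube2l6 window lies at chr2:84806439-84806471 on the plus strand in exon 3. Ube2a and Ube2b differ at 5 of the window's bases, Ube2d1 and Ube2d3 at 6, Ube2d2b and Ube2d3 at 3, Ube2c and Ube2s at 9, and Ube2l3 and Ube2l6 at 11. Over the whole coding sequence the identity was 77.6% for Ube2a and Ube2b, 77.3% for Ube2d1 and Ube2d3, 83.0% for Ube2d2b and Ube2d3, and 60.6% for Ube2l3 and Ube2l6. The 14 sequences without the codons were those of Ube2e1, Ube2e2, Ube2e3, Ube2j1, Ube2j2, Ube2o, Ube2q1, Ube2q2, Ube2ql1, Ube2v1, Ube2v2, Ube2w, Ube2z and Ube2cbp. The search was for these codons alone, so a miss describes the letters and not the enzyme's activity.

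The E2 family was broadly expressed in G1E. Of the 37 genes, 29 were detected (78.4%), where 38.7% of all nuclear protein-coding genes were. The median over the 37 genes was 10.045 TPM (SD 1.21, with 10.86 in replicate 1 and 9.15 in replicate 2), and that over all nuclear protein-coding genes was 0.055 TPM (SD 0.0141). Among detected genes only, the medians were 12.4 TPM (SD 1.44) for the E2 family and 7 TPM (SD 0.523) for protein-coding genes. A total of 15 members stood at 10 TPM or more in both libraries and 7 of them at 20 or more.

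Levels were uneven within the family. The 5 members with the highest mean level together held 51.0% of the family's summed TPM in replicate 1 and 50.1% in replicate 2. The range among detected members ran from 81.6 TPM for Ube2d3 to 1.12 TPM for Ube2o, and the ratio of these genes was 73.0 in replicate 1 and 72.7 in replicate 2. In all, the family held 566.04 and 520.22 TPM in replicates 1 and 2, or 0.314% and 0.306% of the TPM on nuclear protein-coding genes, from 147421 and 135242 expected counts.

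**Figure D1:**
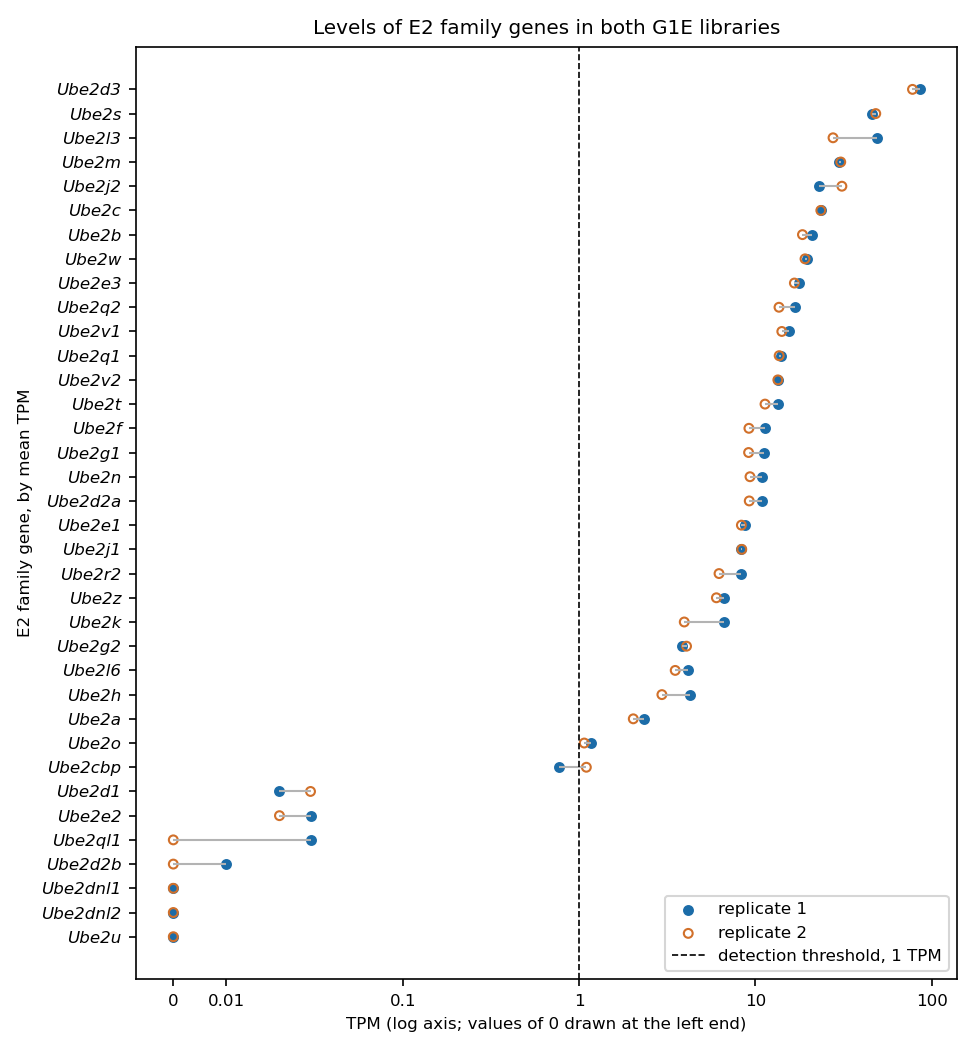
Level of each E2 family gene named in the text in replicate 1 (filled) and replicate 2 (open), in TPM on a log axis, with values of 0 drawn at the left end and the detection threshold of 1 TPM dashed. Detected genes lie to the right of the threshold in both libraries, Ube2cbp straddles it, and the other 7 lie at 0.03 TPM or below.

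Among the E2 enzymes that work with many ligases, the D class, most of the RNA came from a single gene. Ube2d3, a broad partner of RING ligases (chromosome 3, 135438149 to 135468198, plus strand), stood at 85.45 TPM in replicate 1 and 77.8 in replicate 2 (81.6 ± 5.41, n = 2; 26015 and 23903 expected counts), rank 315 and 319 among nuclear protein-coding genes. Its paralog Ube2d2a stood at 10.86 and 9.23 TPM. Ube2d1, another member of the class, was close to 0, with 0.02 and 0.03 TPM from 9 and 3 expected counts. The deposited effective length of Ube2d1 fell from 2946 to 605 nt between the libraries, so its TPM was higher in the library with fewer reads.

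The remaining D class genes were at or near the limit of counting. Ube2d2b, close in sequence to Ube2d3 as the windows show, had 3 and 1 expected counts. Ube2dnl1 and Ube2dnl2, D class genes that neighbour each other on chromosome X, had no counts in either library. With 0 counts the upper limit is 3 counts, or 0.0335 TPM in replicate 1 and 0.0319 in replicate 2 for both. The pseudogene Ube2d-ps, which is outside the family as defined here, was listed at 1.09 and 1.49 TPM.

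In the E class, whose members extend an E2 core at the N-terminus, Ube2e3 led with 17.76 TPM in replicate 1 and 16.64 in replicate 2, ahead of Ube2e1 with 8.77 and 8.33. Ube2e2 had 6 and 4 expected counts and deposited TPM values of 0.03 and 0.02. The authors' interval for Ube2e2 ran from 0.142 to 0.479 TPM in replicate 1 and from 0.121 to 0.416 in replicate 2, so both deposited TPM values lie below their own interval. Under either figure Ube2e2 was below the detection threshold.

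E2 enzymes of the ubiquitin-like modifiers took the largest share of the family's RNA of any role, 23.6 ± 0.875% of its TPM from 5 genes, all detected. Ube2m, which loads NEDD8 for most cullins, stood at 29.97 and 30.48 TPM, and Ube2f, which serves the NEDD8 modification of Cul5, at 11.32 and 9.19.

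Ube2l6 and Ube2z, of the same role, were lower. Ube2l6, the E2 of ISG15 (chromosome 2, 84798828 to 84810335, plus strand), stood at 4.16 TPM in replicate 1 and 3.51 in replicate 2 (3.84 ± 0.460, n = 2; 946 and 818 expected counts). Ube2z, which takes ubiquitin or FAT10 from the E1 enzyme Uba6, stood at 6.63 and 6.01 TPM, and Uba6 itself had a mean of 5.62 TPM.

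The cell cycle and DNA damage E2 enzymes were all detected and held 19.3 ± 0.8005% of the family's TPM. Ube2s and Ube2c act in turn on substrates of the anaphase-promoting complex: Ube2c starts the chain and Ube2s extends it. Ube2s stood at 46.08 and 48.16 TPM (47.1 ± 1.47, n = 2) and Ube2c at 23.6 and 23.5 TPM (23.6 ± 0.0707, n = 2), the latter among the closest agreements between the libraries in the family. Exons of Ube2s overlap Rpl28 by 183 nt on the opposite strand, and Rpl28 carried 8514 and 8220 expected counts. No source used here gives the strand of counting, and the part of Rpl28 reads in the Ube2s value was not tested.

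Ube2t, the E2 of the Fanconi anaemia pathway, stood at 13.38 TPM in replicate 1 and 11.34 in replicate 2. Ube2b, which with Rad18 ubiquitinates PCNA and with Rnf20 and Rnf40 histone H2B, stood at 20.85 and 18.49 TPM, and its X-linked paralog Ube2a at 2.32 and 2.03. No E2 family gene, these paralogs included, had a deposited posterior SD of the count above 0.05 of the posterior mean, the mark used for reads divided between genes.

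The E2 genes of signalling chains were close to each other. Ube2n, which builds chains used in DNA damage tolerance and immune signalling, stood at 10.88 TPM in replicate 1 and 9.32 in replicate 2. Its inactive partners were at 15.55 and 14.12 TPM for Ube2v1, the partner in NF-kB signalling, and at 13.45 and 13.41 TPM for Ube2v2, the partner in DNA damage tolerance. Together they held 7.06 ± 0.0269% of the family's TPM.

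Of the E2 enzymes that build proteasomal chains or serve degradation at the endoplasmic reticulum, 6 of 6 were detected. Ube2j2, a membrane-anchored E2, was the highest at 23.02 and 30.94 TPM (26.98 ± 5.60, n = 2), above its paralog Ube2j1 at 8.3 and 8.37. Ube2g1 stood at 11.13 and 9.15 TPM and Ube2g2, which serves degradation at the endoplasmic reticulum, at 3.83 and 4.07. Ube2r2, a partner of cullin ligases, stood at 8.28 and 6.22 TPM. Ube2k, which extends proteasomal chains, stood at 6.63 TPM in replicate 1 and 3.95 in replicate 2, a larger spread than for most members.

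The E2 genes known from late erythroid cells were low in TPM in this line. Ube2o, a large enzyme of 1288 coding codons that joins E2 and E3 functions and tags surplus proteins in reticulocytes (chromosome 11, 116537740 to 116581447, minus strand), was the lowest detected member at 1.17 TPM in replicate 1 and 1.07 in replicate 2 (1.12 ± 0.0707, n = 2). It rested on 896 and 769 expected counts, so the value is low but not thinly counted. The authors' interval ran from 1.10 to 1.35 TPM in replicate 1 and from 0.997 to 1.20 in replicate 2, so the latter crosses the detection threshold.

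Ube2h, the E2 of the CTLH ligase (chromosome 6, 30211289 to 30304539, minus strand), stood at 4.26 TPM in replicate 1 and 2.95 in replicate 2 (3.605 ± 0.926, n = 2), from 3152 and 2240 expected counts. Ube2o and Ube2h together held 0.866 ± 0.132% of the family's TPM. With Ube2l6 at 3.84 TPM, all 3 late erythroid E2 genes lay below the family median of 10.045 TPM and above the threshold of detection. Rank by mean level placed them above 61.3% (Ube2o), 71.7% (Ube2h) and 72.4% (Ube2l6) of nuclear protein-coding genes. These places, and the 0.866% share, are per length. In expected counts Ube2h lay above Ube2c in replicate 1 (3152 against 3016) and below it in replicate 2 (2240 against 3106). The low place of Ube2h thus rests on the length correction, at least in replicate 1. Ube2l6 (946 and 818 counts) and Ube2o (896 and 769) lay below Ube2c per read in both libraries. These values describe cells before maturation only, since no matured sample was analysed here.

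**Figure D2:**
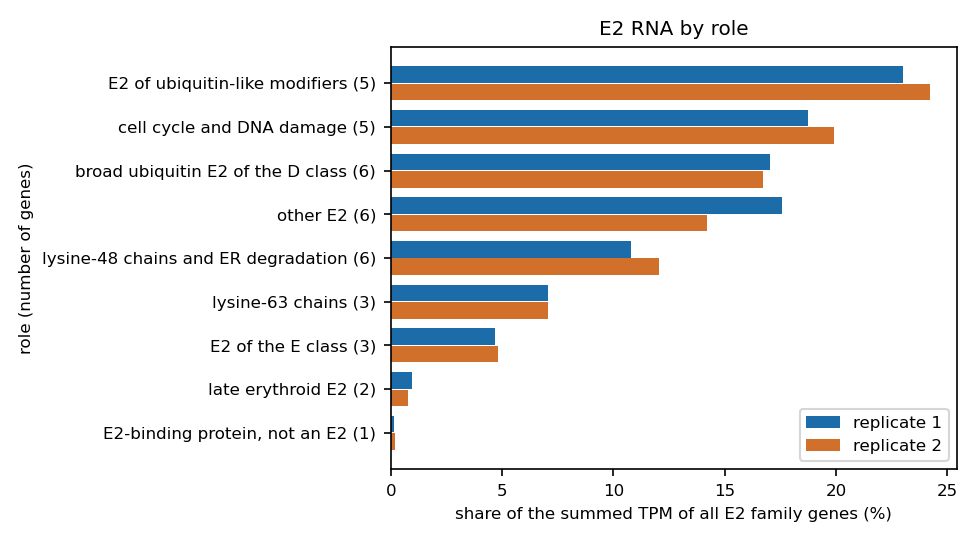
Share of the family's summed TPM held by each role, in percent, with the number of genes in brackets and 1 bar per library (blue, replicate 1; orange, replicate 2). E2 genes of ubiquitin-like modifiers hold 23.6% on average and the late erythroid pair Ube2h and Ube2o 0.866%.

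The rest of the family serves varied substrates. Ube2l3, which works with HECT and RBR ligases such as parkin, stood at 48.94 TPM in replicate 1 and 27.56 in replicate 2 (38.2 ± 15.1, n = 2), the widest absolute gap of any member. Ube2w, which attaches ubiquitin to the N-terminus of substrates, stood at 19.73 and 19.12 TPM. Ube2q2 and Ube2q1 stood at 16.76 and 13.61 TPM and at 14.03 and 13.64 TPM. Ube2ql1 had 12 and 1 expected counts, and Ube2u had none in either library, for which 3 counts would be 0.0140 TPM in replicate 1 and 0.0136 in replicate 2. Ube2cbp stood at 0.77 TPM in replicate 1 and 1.10 in replicate 2.

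Close paralogs and partners were compared within each library, as the difference of log2(TPM + 1) between the genes. A difference counted as past the replicate limit where it had the same sign in both libraries and exceeded in each 3 times the combined replicate SD of both genes. The replicate SD of log2(TPM + 1) among detected protein-coding genes was 0.158 at 1 to 10 TPM, 0.184 at 10 to 100 TPM and 0.222 above 100 TPM. This limit describes the spread of single genes between libraries and carries no p-value. The SD was not centred, so it includes the shift in TPM common to detected genes, which a ratio within a library does not carry. Of 17 pairs, 13 were past it.

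The 6 D and E class differences were all past the limit. The log2 ratio of Ube2d2a over Ube2d3 was -2.91 ± 0.056, and that of Ube2d1 over Ube2d3 was -6.33 ± 0.10 with the pseudocount of 1 and -9.35 with a pseudocount of 0.1. The size of the latter rests on the pseudocount, as Ube2d1 had 9 and 3 counts, and the same holds for pairs with Ube2e2. Ube2e1 lay below Ube2e3 by -0.93 ± 0.016, against a limit of 0.73, and so by a small margin. Ube2b exceeded Ube2a, with Ube2a over Ube2b at -2.70 ± 0.023, and the linear ratio of Ube2a to Ube2b was 0.111 in replicate 1. Among paralogs that build proteasomal chains or serve degradation at the endoplasmic reticulum, Ube2g1 over Ube2g2 was 1.16 ± 0.23. Ube2j1 over Ube2j2 was -1.57 ± 0.28.

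Pairs that share a modifier or a ligase also differed. Ube2m exceeded Ube2f by 1.48 ± 0.21 on the log2 scale. The paralogs Ube2l3 and Ube2l6, which differ in role, were also apart, with Ube2l3 higher by 2.97 ± 0.43. For the anaphase-promoting complex, Ube2c over Ube2s was -0.97 ± 0.048 against a limit of 0.78. Ube2r2 over Cdc34, the other E2 of cullin ligases, was -1.17 ± 0.23, with Cdc34 at 17.65 and 17.12 TPM. On counts scaled by depth with no length correction, Ube2r2 exceeded Cdc34 by 0.56 and Ube2j1 and Ube2j2 were within 0.01 of each other, and Ube2m over Ube2f fell to 0.30, under its limit, so these differences hold per length and not per read.

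Within the limit were Ube2q1 over Ube2q2 at -0.12 ± 0.17, Ube2v1 over Ube2v2 at 0.13 ± 0.089, Ube2n over Ube2v1 at -0.51 ± 0.051 and Ube2n over Ube2v2 at -0.38 ± 0.14. The limit was 0.78 for each, so differences below that size did not count as past it. Ube2n was the lower gene of its pairs in both libraries per length, and the higher one per read.

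**Figure D3:**
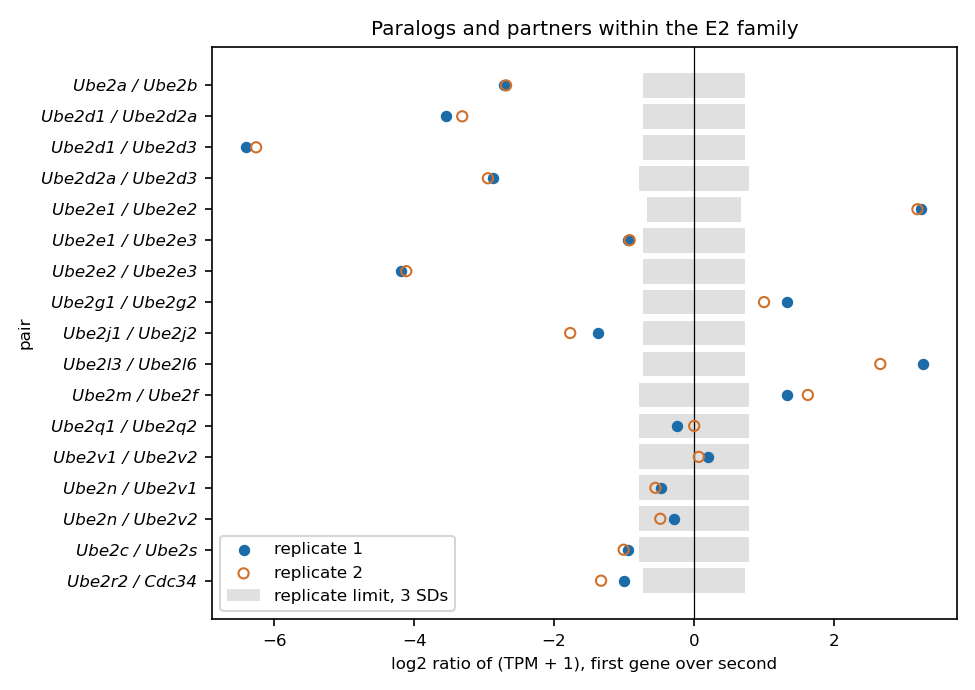
Log2 ratio of (TPM + 1) of the first gene over the second for 17 paralog or partner pairs, in replicate 1 (filled) and replicate 2 (open), with grey bars for the limit of 3 combined replicate SDs. Both points lie outside the grey bar for 13 pairs, and inside it for the pairs of Ube2q1, Ube2v1 and Ube2n.

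For each gene the rounded expected counts of the libraries were then compared in an exact binomial test (two-sided, library sizes scaled by TMM, Benjamini-Hochberg adjustment over all 18409 genes with at least 10 counts). This test compares 2 libraries of the same line, knows counting error only, and says nothing on conditions. At an adjusted p under 0.05 and at least 2-fold, 1 of 33 E2 family genes tested was called, where 10.3% of nuclear protein-coding genes were. It was Ube2ql1, with 12 expected counts in replicate 1 and 1 in replicate 2 (adjusted p = 0.0155), a gene near the limit of counting.

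Without a minimum fold, 13 members were higher in replicate 2 and 6 lower, where 30.4% and 22.3% of nuclear protein-coding genes were. Of the 29 members with at least 1000 counts over both libraries, 12 were higher and 5 lower, where 43.2% and 22.9% of such genes were. These folds were small: the median size of the log2 difference was 0.078 among detected members and 0.137 among detected protein-coding genes. Ube2l3 was lower in replicate 2 by counts (fold 0.842), as were Ube2k (0.769) and Ube2h (0.7996), while Ube2j2 was higher (1.28). Ube2cbp was 1.65-fold higher in replicate 2, from 205 and 300 expected counts (adjusted p = 2.16e-07 by the same test).

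On the TPM scale 24 of the 29 detected members were higher in replicate 1 and 5 in replicate 2. The median log2 TPM ratio of replicate 2 over replicate 1 was -0.14 among detected members and -0.14 among detected protein-coding genes, about the same in both sets. After TMM scaling of counts the median log2 difference was 0.045 among detected members and 0.064 among detected protein-coding genes.

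**Figure D4:**
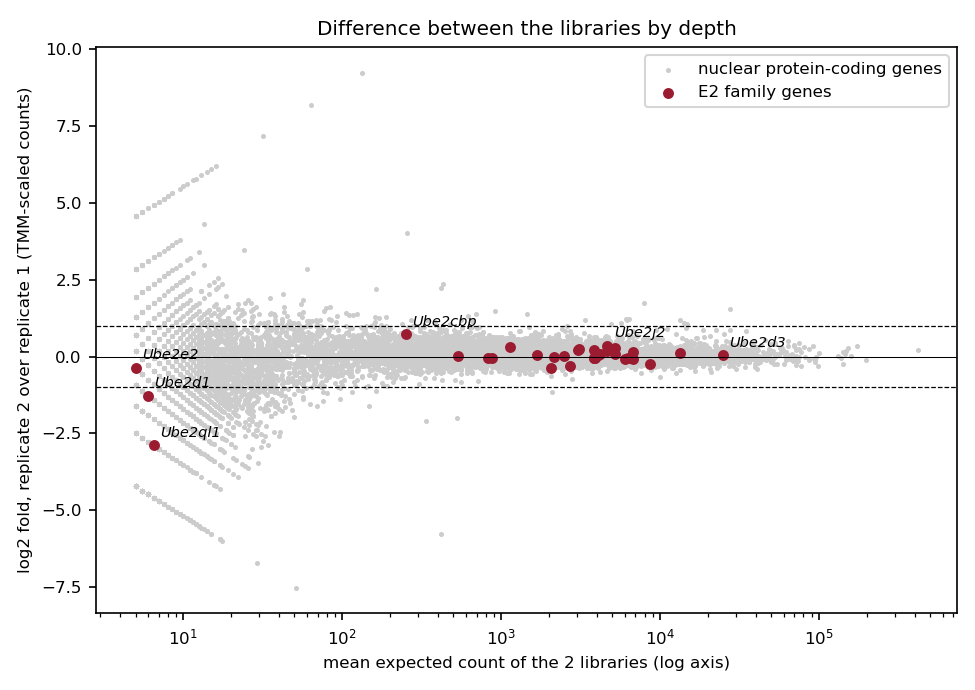
Log2 fold of replicate 2 over replicate 1 from TMM-scaled expected counts, against the mean expected count of the libraries on a log axis, for nuclear protein-coding genes (grey) and the 33 E2 family genes tested (red), with dashed lines at 2-fold. The E2 genes above 100 counts all lie within the dashed lines, and Ube2ql1 and Ube2d1, both under 10 counts on average, lie below them.

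The transcript values give an estimated split of each gene's level among its annotated RNAs. The accuracy of this split was not tested. Of the 29 detected members, 5 had a single transcript and 24 had several. The leading transcript was the same in both libraries for 23 of the 24, and it was a coding transcript in both for 22. Its median share of the gene's TPM was 76.4%, and the median shift between the libraries was 3.26 percentage points. Ube2l6 came from a single coding transcript of 1560 nt, with 100% in both libraries, and Ube2h from one of 4657 nt, with 98.36% and 99.63%. Ube2d3 was split, with 51.54% and 53.28% in its leading transcript.

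Ube2l3 was the exception in its leading transcript. A 571-nt transcript that is in the deposited tables and not in GENCODE M21 led in replicate 1 with 58.58% and held 40.42% in replicate 2, or 28.67 and 11.14 TPM from 1737 and 720 expected counts. The full-length coding transcript of 2609 nt held 40.26% and 56.62%, or 19.7 and 15.6 TPM, from 7971 and 6424 counts. The rest of the gene without the 571-nt transcript stood at 20.27 TPM in replicate 1 and 16.42 in replicate 2. In TPM, most of the gap in Ube2l3 between the libraries thus lay in the estimate for that short RNA. In expected counts the 2609-nt transcript fell by more than the 571-nt one. Its gene also overlaps Ydjc by 1670 nt on the opposite strand, where Ydjc had 603 and 844 counts.

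Ube2j2 showed the same kind of shift in the other direction. A coding transcript of 395 nt was listed at 0 in replicate 1 and at 8.08 TPM, from 282 expected counts, in replicate 2. The other transcripts of Ube2j2 summed to 23.03 and 22.86 TPM, and changed among themselves. Ube2j2-204 went from 5.54 to 0.01 TPM and Ube2j2-202 from 8.3 to 12.91.

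The mix of transcripts also shifted in Ube2o, the low erythroid E2. The 5205-nt coding transcript went from 71.8% in replicate 1 to 52.11% in replicate 2, or 0.84 and 0.56 TPM from 710 and 476 counts, and a noncoding transcript of 3550 nt held the rest. By this estimated split, Ube2o in coding transcripts alone was below 1 TPM in both libraries. Ube2k was led in both libraries by a transcript of 1484 nt that is not in GENCODE M21, with 54.34% and 45.6%. The leading transcript of Ube2m fell from 65.29% to 46.2% between replicates 1 and 2 while the gene's TPM differed little.

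**Figure D5:**
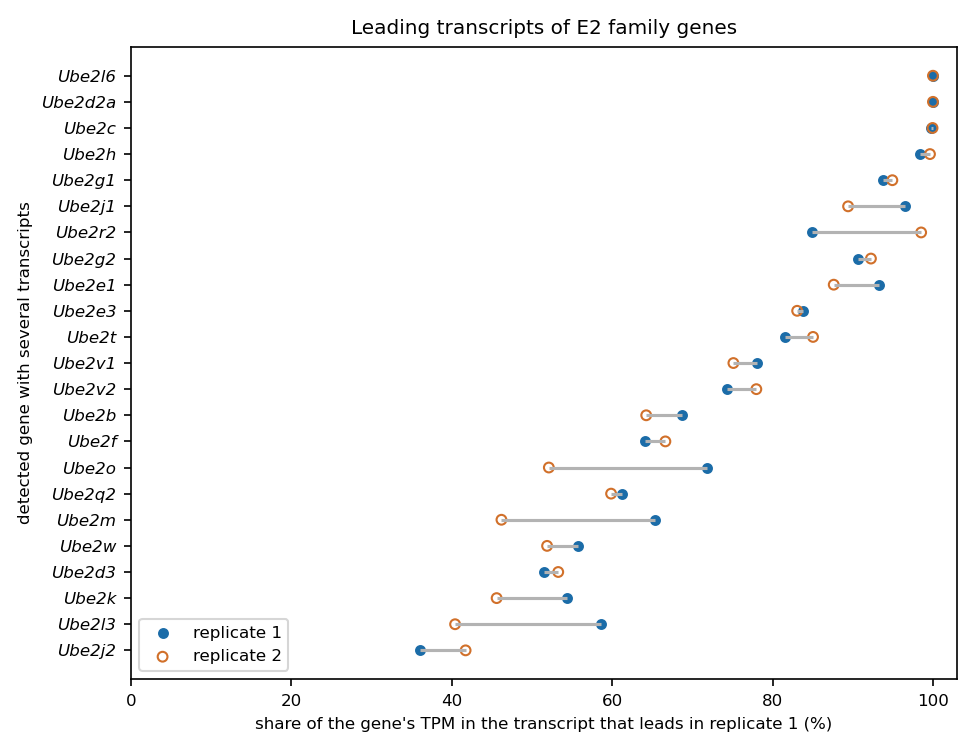
Share of the gene's TPM, in percent, in the transcript that leads in replicate 1, for the detected E2 genes with several transcripts named in the text (filled, replicate 1; open, replicate 2). Ube2l6 and Ube2h stay close to 100%, while Ube2l3, Ube2o and Ube2m shift by more than 15 points.

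The machinery around the E2 enzymes was present nearly throughout. Of 121 genes in 11 lists of activating enzymes, modifiers, ligases and partners, 114 were detected, where 38.7% of all nuclear protein-coding genes were. The lists were chosen with earlier results of these data known. All 10 E1 enzymes were detected, with a list median of 18.04 ± 1.59 TPM. Uba2, a subunit of the SUMO E1, was the highest of them at 59.54 and 55.68 TPM, and Mocs3 the lowest at 1.07 and 1.57. Uba1, the main E1 of ubiquitin, stood at 31.73 and 34.14 TPM. All 8 conjugating enzymes with other names were detected, from Birc6 at 28.04 and 23.24 TPM down to Uevld at 1.70 and 1.45.

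The modifier genes had the highest list median, 65.1 ± 0.735 TPM, with 11 of 12 detected. Isg15 was the one not detected, at 0.03 and 0.17 TPM from 3 and 16 expected counts. The ISG15 and interferon-response list as a whole had 7 of 12 genes detected and a median of 1.39 ± 0.209 TPM. Within it Uba7, the E1 of ISG15, stood at 26.88 and 32.41 TPM, above Ube2l6, the E2 it charges, while Herc6 was at 0.01 TPM in replicate 1 and listed at 0 in replicate 2.

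Ligases that use the E2 enzymes described were detected with few exceptions. The anaphase-promoting complex, served by Ube2c and Ube2s, had 16 of 16 genes detected and a median of 13.7 ± 0.389 TPM, from Anapc5 at 35.95 and 35.86 TPM to Anapc10 at 2.34 and 2.13. The CTLH ligase, served by Ube2h, had 11 of 11 detected and a median of 7.42 ± 0.870 TPM, led by Mkln1 at 32.38 and 32.84, with Maea, one of its RING subunits, at 18.56 and 20.87 and Ranbp10 the lowest at 2.19 and 2.01. Ube2h, at 4.26 and 2.95 TPM, lay below that median. Cullins and their RING subunits had 11 of 12 detected and a median of 12.6 ± 1.47 TPM, with Cul3 at 52.41 and 42.52 and Cul9 at 0.14 in both libraries.

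The remaining lists were detected in full or nearly so. RING partners of Ube2n had 11 of 11 detected, from Hltf at 15.78 and 13.19 TPM to Traf2 at 3.37 and 3.31. SUMO ligases and proteases had 12 of 12, with Senp6, a SUMO protease, at 35.89 and 28.7 TPM and Pias3 at 1.02 and 1.25. Partners in degradation at the endoplasmic reticulum had 9 of 10, led by Vcp, the ATPase that extracts tagged proteins, at 48.39 and 36.66 TPM, with the ligase Syvn1 under the threshold in replicate 1 at 0.88 and at 1.02 in replicate 2. DNA damage ligases had 9 of 9, from Rnf20 at 22.93 and 20.2 TPM to Bard1 at 4.18 and 3.66.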

How the data were processed

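The 2 G1E libraries held total RNA without ribosomal RNA, with 100 ng of input, ScriptSeq preparation and a size range of 200 to 1000 nt, per the labels. Per the file headers, the deposited gene and transcript tables hold 1 library each, with expected counts, TPM, FPKM, posterior means and an interval for TPM whose level no source used here gives. The deposited transcript tables also hold the percent of the gene in each transcript. The deposited read-me texts name mm10 and GENCODE M4. Not given in the sources used here were the aligner, the quantifier, their versions and the strand of counting. Overlaps on opposite strands are therefore uncertain: exons of 9 members overlap another gene, 7 on the opposite strand. The deposited TPM is scaled to all genes in the table, noncoding and mitochondrial ones included.

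Symbols, types, coordinates and coding sequences came from GENCODE M21 on the same assembly, matched on the identifier without its version. TMM factors came from edgeR 4.0.16 in R 4.3.3 on rounded expected counts, and its biological coefficient of variation over 13335 genes was 16.1%. Alternative size factors came from DESeq2 1.42.0. The library comparison used a two-sided exact binomial test with Benjamini-Hochberg adjustment at 0.05, a minimum of 10 counts over both libraries and 2-fold. It was checked on simulated counts that held counting error only, so the check does not cover further spread between real libraries. The labels number the libraries as biological replicates and do not describe separate cultures. The p-values measure counting error only, and the spread between these libraries may be technical. Limits of 3 counts cover counting error alone, as there were no molecular identifiers. With 2 libraries an exact two-sided test across libraries cannot go below p = 0.5, so none was used. In the pair comparison genes under 1 TPM borrowed the SD of genes at 1 to 10 TPM. Other steps used Python 3.11.15, numpy 2.4.6, scipy 1.17.1, pandas 2.3.3, Biopython 1.88 and matplotlib 3.10.9.

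Members, lists and pairs were chosen with earlier results of these data known. Some genes are not reported here by name and count only in totals and medians. Named genes are the other E2 family genes, and of each pathway list the highest and lowest by mean TPM, with Cdc34, Isg15, Uba1 and Uba7. Uba6, Maea, Trim58, Rpl28, Ydjc and Ube2d-ps were named outside that rule, after their values were seen. Alternatives varied the detection threshold, scale, pseudocount, replicate limit, library scaling, low-count filter and fold, and left out each library.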

Additional observations from a re-analysis of the deposited data

How the results depend on the processing

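The number of detected E2 genes was 23 to 30 over other thresholds and scales and 29 to 30 with 1 library alone, and that of pathway genes 81 to 115. The family median of 10.045 TPM became 57.3 when TPM was rescaled to nuclear protein-coding genes, 30.0 in FPKM (29.99) and 12.4 over detected members only, and ran from 9.15 to 10.86 with a library left out. Rescaling multiplies all genes of a library alike. The share of the 5 leading members fell from 50.6% to 42.9% with expected counts in place of TPM, which keeps no length correction, and was 50.8% to 51.0% with a library left out and the leading 5 chosen anew, where Ube2j2 replaced Ube2l3 in replicate 2. A total of 13 pairs were past the limit under each alternative other than depth-scaled counts with no length correction, where 10 were. There the log2 ratio turned to 0.0027 for Ube2j1 over Ube2j2, 0.0066 for Ube2q1 over Ube2q2, 0.60 for Ube2n over Ube2v1, 0.69 for Ube2n over Ube2v2 and 0.56 for Ube2r2 over Cdc34, and Ube2m over Ube2f fell under its limit at 0.30. With a library left out, Ube2q1 over Ube2q2 was -0.24 (without replicate 2) and turned to 0.0030 (without replicate 1). With no minimum fold, 19 E2 genes differed between the libraries, and with 1.5-fold 2 did (Ube2cbp and Ube2ql1), while other scalings and no count filter called Ube2ql1 alone. Leading transcripts matched in 24 of 27, 18 of 19 and 23 of 24 genes under the alternatives. With posterior means, 9 of the 37 members' mean levels moved by more than their SD. The low counts of Ube2ql1, Ube2d1, Ube2e2 and Ube2d2b limit what can be said of them. No paired analysis was possible because there is 1 group only.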

Other observations

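With TPM rescaled so that nuclear protein-coding genes fill the total, Ube2d3 stood at 473 in replicate 1 and 458 in replicate 2, and Ube2o at 6.48 and 6.30 (rescaled TPM), a change of unit that all genes of a library share. Of the genes with E2 names that are not protein-coding in GENCODE M21, Ube2d4 had 0 and 1 expected counts, and Ube2nl and Ube2uos had none.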
